A study of Mus musculus with 7 samples.

Results

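The 42 genes described here encode the enzymes that make, break down and use glutathione, together with redox, iron storage and pentose phosphate genes known as targets of the transcription factor NRF2. They were taken by symbol from a table of 55417 gene symbols. All 42 symbols were in the table, and 36 passed the filter on low counts, among 13329 genes that passed it in all. The RNA came from RAW264.7, a mouse macrophage-like tumour line, and was read as stranded total RNA libraries. Each of the 7 libraries carried 1 of 3 short hairpins. Hairpins shDpep2.968 (n = 2) and shDpep2.759 (n = 2) both target Dpep2, and shNT (n = 3) is the control hairpin, so every group carried a hairpin. No further treatment, time or clone is named. Nothing in the labels ties a replicate to a culture of its own. The p-values therefore set differences only against the spread among these samples, which may be technical variation.

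Total counts ran from 16548648 to 18401060 per library. Dpep2 encodes a membrane-bound dipeptidase that cleaves leukotriene D4, and its level, in CPM (counts scaled to a common library size after TMM normalization), checks the hairpins. Under shNT, Dpep2 had 55.6, 60.3 and 52.1 CPM, under shDpep2.968 22.4 and 17.9 CPM, and under shDpep2.759 24.9 and 19.5 CPM. The Dpep2 hairpin libraries all lay below the controls. All 7 macrophage markers examined were present at 127.5 CPM or more in each library, and their summed level was 12859 to 17910 CPM in the Dpep2 hairpin libraries and 12117 to 13504 CPM in the controls. Most of that sum came from Lyz2 (8817 to 14050 CPM), so it says little about the other macrophage markers. Epithelial markers summed to at most 0.173 CPM and fibroblast markers to at most 2.36 CPM, and 3 of 4 lymphocyte markers were at 0 throughout. The neutrophil list (4 markers, with Ly6g at 0) summed to 34.1 to 237 CPM with the Dpep2 hairpins and 17.3 to 33.7 CPM without them. Nearly all of that came from S100a8, and its part in the results below was not tested.

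Glutathione is a tripeptide of glutamate, cysteine and glycine. Glutamate-cysteine ligase joins the first pair and glutathione synthetase adds glycine, while gamma-glutamyl transferases and dipeptidases take the tripeptide apart again outside the cell and return cysteine to it. Peroxidases and transferases spend glutathione on peroxides and electrophiles, and glutathione reductase restores it with NADPH, part of which comes from the pentose phosphate pathway. NRF2, held low by KEAP1, binds antioxidant response elements near genes for these enzymes, and in macrophages that clear red cells the haem-sensing repressor BACH1 shares some of those elements, such as those of haem oxygenase and ferritin.

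Across the 36 tested members, 3 rose and 1 fell with Dpep2 knockdown, taken as the mean of both hairpins against shNT (edgeR quasi-likelihood test, Benjamini-Hochberg adjusted p under 0.05 over all tested genes). Hmox1, Srxn1 and Gpx1 were higher, against a background of 3.44% of all tested genes called higher, and Gstt1 was lower, against 4.15%. The 4 calls are 11.1% of the tested members, and 7.59% of all tested genes were called. At an unadjusted p under 0.05 there were 11 members (30.6%), against 22.9% of all tested genes. The median log2 fold change was 0.03 over the members and 0.00 over all tested genes, with 20 of 36 members above 0. All 4 Dpep2 hairpin libraries lay on one side of all 3 shNT libraries for 9 members (25%), 6 higher and 3 lower. Over all tested genes such a separation held for 18.5% (9.03% higher, 9.51% lower). Of the 32 members that did not pass, 25 had a 95% interval that stayed within a 1.5-fold change either way, and the other 7 were Blvrb, Ephx1, Ftl1, Gstp1, Oplah, Osgin1 and Prdx1. In bulk RNA, fewer cells of a type and less RNA per cell cannot be told apart.

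**Figure D1:**
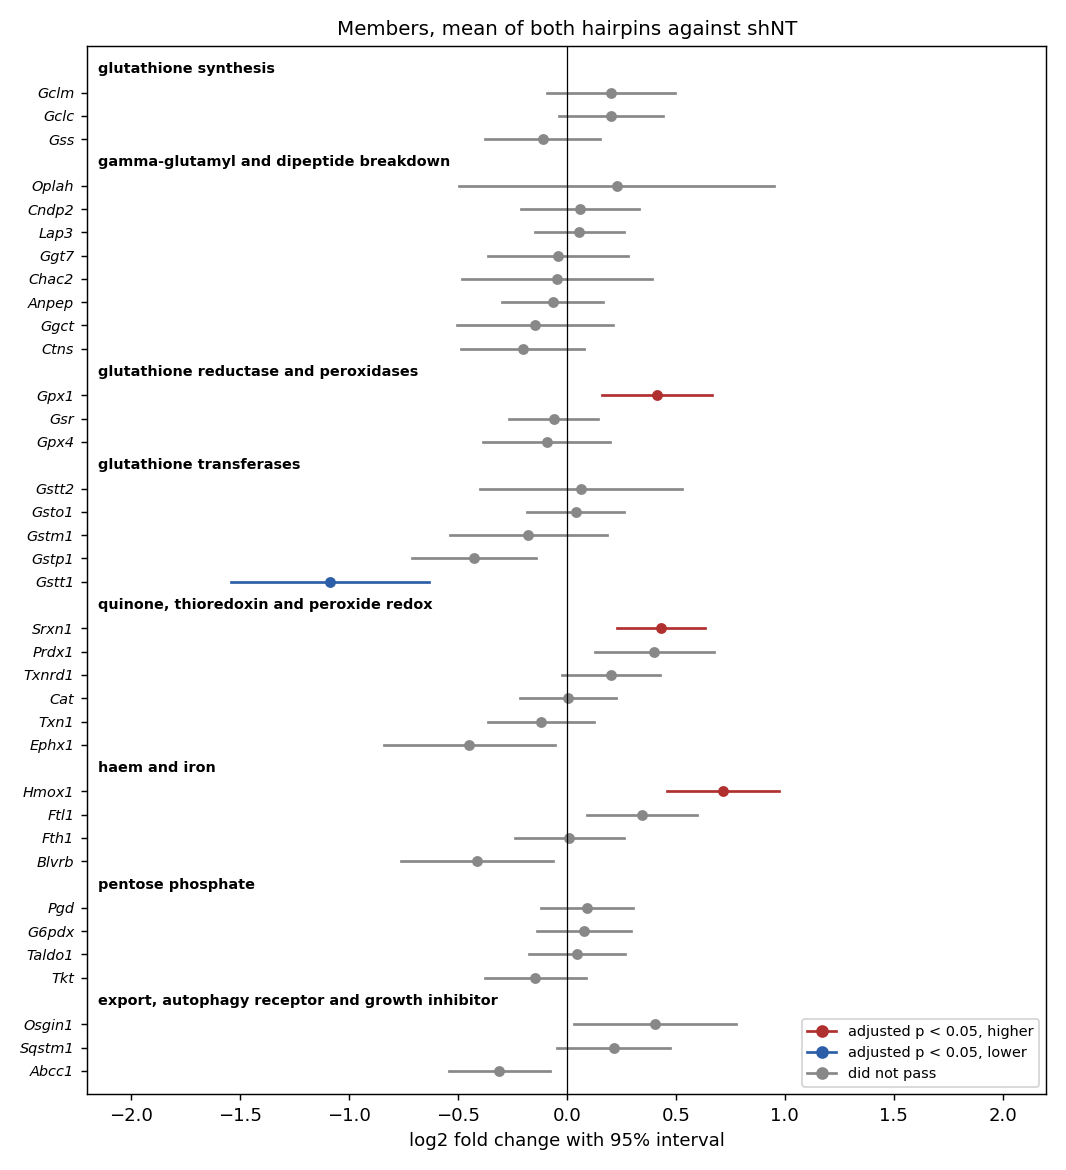
Log2 fold change of the 36 tested members, mean of both Dpep2 hairpins against shNT, by role. Points are estimates and lines 95% intervals, and red and blue mark adjusted p under 0.05. Hmox1 at 0.72 and Gstt1 at -1.09 stand at the ends.

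The promoters of members were searched for the core of the antioxidant response element, TGACNNNGC, on both strands of RefSeq windows (build GRCm38.p6) reaching from 250 bases before to 50 bases after a gene's start. Windows were used for 33 members; those of Gclc, Ggt5, Oplah, Cndp2, Gsr, Gsta4, Gstt2, Hmox1 and Abcc1 were not used here. The core was in a window of 10 of the 33 members (30.3%) and of 14.0% of all 27025 genes with a window. The sites of 5 tested members are shown with 10 flanking bases on each side. They are read along the gene 5′ to 3′, with the core in capitals. All 5 cores lie on the opposite strand, so their letters appear here as the reverse complement.
Srxn1: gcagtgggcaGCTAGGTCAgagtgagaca
Prdx1: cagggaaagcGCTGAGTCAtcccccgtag
Txnrd1: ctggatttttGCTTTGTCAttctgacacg
Gclm: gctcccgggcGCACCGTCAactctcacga
G6pdx: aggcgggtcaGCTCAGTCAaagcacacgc
The Srxn1 window shown is chr2:152105542-152105570 on the plus strand, with the core 29 bases past the start. Those of Prdx1 (chr4:116685456-116685484, plus strand), Txnrd1 (chr10:82859104-82859132, plus strand), Gclm (chr3:122245413-122245441, plus strand) and G6pdx (chrX:74428919-74428947, minus strand) have the core at -133, -92, -134 and -57 from the start. Of these 5 genes, Srxn1 passed the averaged test. The others with the core were Ggct and Pgd, which were tested, and Ggt1, Gstm5 and Mgst1, which had 6 or fewer counts in any library. These letters were not found in the windows of Gpx1, Gstt1, Blvrb or Ftl1. A match describes letters in this window and shows no binding.

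The members differed widely in level. Per kilobase of the longest annotated transcript, the ferritin light chain Ftl1 (4473 CPM per kilobase in the controls) and heavy chain Fth1 (3868 CPM per kilobase) led. Hmox1 followed at 382 CPM per kilobase, then the autophagy receptor Sqstm1 and the peroxiredoxin Prdx1 at 331 and 329.9 CPM per kilobase. The 2 ferritin genes made up 63.8% to 68.0% of the members' summed CPM, and the members together 1.77% to 2.36% of a library. At the other end, Nqo1, the quinone reductase widely used as an NRF2 readout, had 1 to 7 counts per library. Ggt1, a gamma-glutamyl transferase, had 0 to 6 counts, Mgst1 0 to 3, Gstm5 0 to 2, and Gsta4 and Ggt5 0 or 1. These 6 did not pass the filter, and differences in them were not detectable at this depth.

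**Figure D2:**
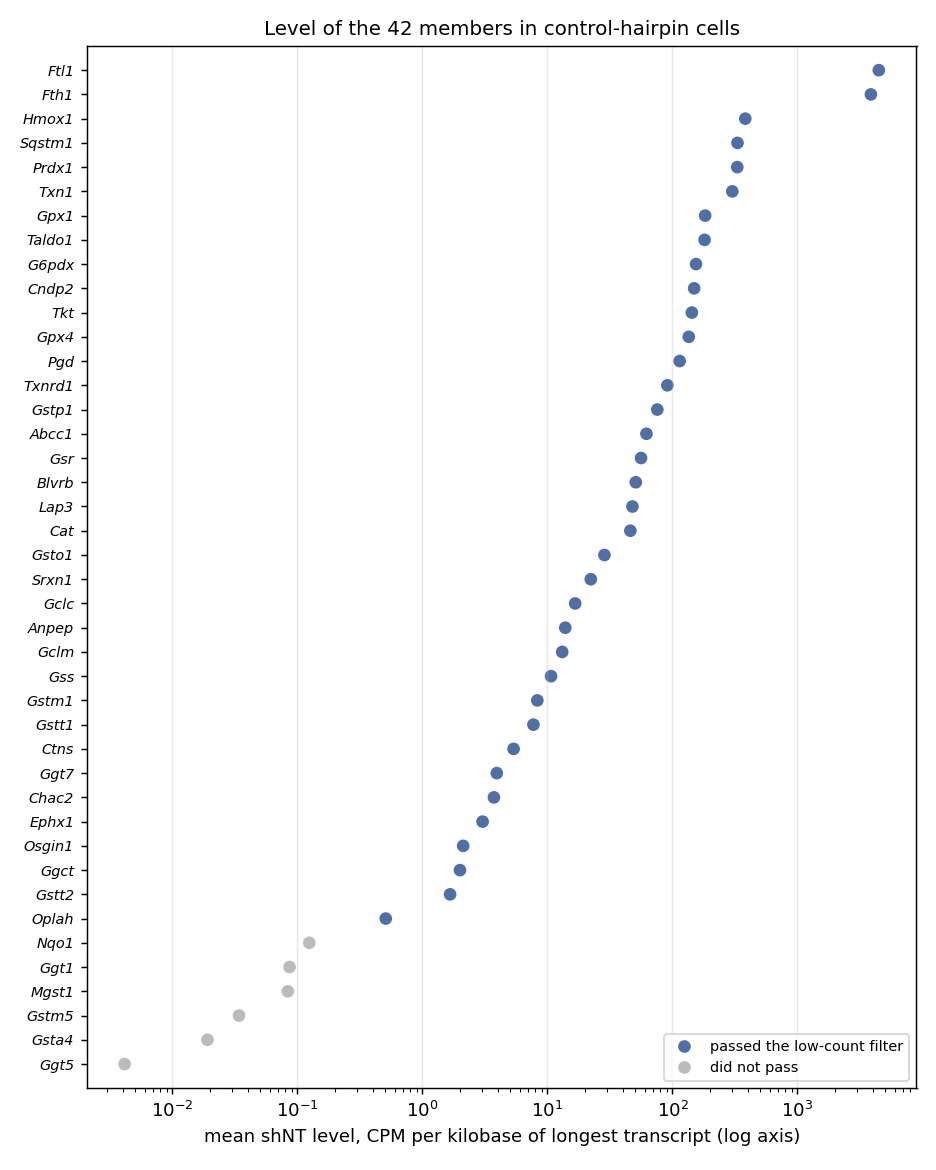
Mean level of the 42 members in the 3 shNT libraries, in CPM per kilobase of the longest transcript on a log axis. Blue points passed the low-count filter and grey points did not. Ftl1 and Fth1 lead, and Nqo1 at 0.124 lies below every tested member.

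The first step of glutathione synthesis is carried out by a catalytic subunit, Gclc, and a modifier subunit, Gclm. The control libraries held 59.3, 55.7 and 56.0 CPM of Gclc, those of shDpep2.968 70.5 and 70.3 CPM, and those of shDpep2.759 53.3 and 69.1 CPM. Gclm measured 88.5 and 94.3 CPM in the shDpep2.968 libraries, 62.0 and 94.1 CPM in the shDpep2.759 libraries and 78.4, 65.1 and 76.6 CPM in the shNT libraries. For both subunits shDpep2.759 replicate 1 was the lowest of the 7 libraries, whereas both shDpep2.968 libraries lay above all controls. The averaged log2 fold change was 0.20 for Gclc (95% interval -0.03 to 0.44) and 0.20 for Gclm (-0.09 to 0.50). Gss, the synthetase of the second step, had -0.11 (-0.37 to 0.15). In the averaged comparison 0 of these 3 genes passed in edgeR, 0 in DESeq2 and 0 at an unadjusted p under 0.05. With shDpep2.968 alone Gclc had a log2 fold change of 0.30 (edgeR unadjusted p = 0.0353, adjusted p = 0.18).

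Genes of gamma-glutamyl and dipeptide breakdown, the steps nearest to the enzyme made by Dpep2, had 8 tested members. In the averaged comparison 0 of these 8 passed in edgeR, 0 in DESeq2 and 0 at an unadjusted p under 0.05. Their averaged log2 fold changes ran from -0.20 to 0.23 around a median of -0.04. Cndp2 is a cytosolic dipeptidase that splits cysteinylglycine. Under shNT, Cndp2 had 289, 329 and 344 CPM, under shDpep2.968 278 and 321 CPM, and under shDpep2.759 428 and 320.5 CPM. Its groups overlapped, and the log2 fold change was 0.06 (95% interval -0.21 to 0.33). The aminopeptidases Lap3 and Anpep had 0.06 (-0.15 to 0.26) and -0.06 (-0.30 to 0.17), and Ctns, which exports cystine from lysosomes, had -0.20 (-0.48 to 0.08). Ggct and Chac2, which release 5-oxoproline from gamma-glutamyl peptides and from glutathione, had -0.14 and -0.04. Oplah, which opens 5-oxoproline, had 0.23 with a wide interval (-0.49 to 0.95) from a control mean of 2.07 CPM. Ggt7, a relative of the transferases, had -0.04 on average. The control libraries held 8.76, 11.2 and 10.9 CPM of Ggt7, those of shDpep2.968 8.90 and 7.14 CPM, and those of shDpep2.759 13.0 and 11.9 CPM. Both shDpep2.759 libraries were above all controls, and the shDpep2.968 libraries lay among them or below. The difference between the hairpins, 0.63 on the log2 scale (shDpep2.759 minus shDpep2.968, 95% interval 0.21 to 1.06), did not pass (adjusted p = 0.161).

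Of the enzymes that spend and restore glutathione, Gpx1 rose. Gpx1 encodes the cytosolic glutathione peroxidase, a selenoprotein that reduces hydrogen peroxide. Gpx1 measured 255 and 274 CPM in the shDpep2.968 libraries, 296 and 219 CPM in the shDpep2.759 libraries and 205, 193 and 189 CPM in the shNT libraries. Every Dpep2 hairpin library was above every control, with a narrow gap between shDpep2.759 replicate 2 and shNT replicate 1. The averaged change was 1.33-fold (log2 fold change 0.41, SE 0.12, 95% interval 0.16 to 0.67, edgeR adjusted p = 0.0494), close to the threshold. The call was lost without any 1 library except shDpep2.759 replicate 2 (adjusted p 0.0752 to 0.218). It was also lost with all hairpin libraries fitted as 1 group (adjusted p = 0.0775), without robust estimation (0.0647) and with the replicate number as a block (0.317). Gpx1 passed with neither hairpin alone (edgeR adjusted p = 0.0863 for shDpep2.968 and 0.129 for shDpep2.759). Gpx4, the peroxidase of lipid hydroperoxides, had -0.09 (95% interval -0.38 to 0.20), and its pseudogene Gpx4-ps2 held 13 to 77 counts beside 1910 to 2911 for Gpx4, so reads could have been divided between them. Gsr is the reductase. Under shNT, Gsr had 156, 151 and 142 CPM, under shDpep2.968 161 and 162 CPM, and under shDpep2.759 122 and 134 CPM. Both shDpep2.968 libraries lay above the controls and both shDpep2.759 libraries below them. The averaged log2 fold change of Gsr was -0.06, and its difference between the hairpins was -0.33 (95% interval -0.60 to -0.06, adjusted p = 0.24).

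Among 8 glutathione transferases, 5 were tested and 1 fell. That was Gstt1, a theta-class transferase. The control libraries held 7.13, 9.70 and 8.77 CPM of Gstt1, those of shDpep2.968 3.47 and 2.36 CPM, and those of shDpep2.759 6.85 and 4.22 CPM. All 4 Dpep2 hairpin libraries were below the controls, although shDpep2.759 replicate 1 came close to shNT replicate 1. The averaged log2 fold change of Gstt1 was -1.09 (95% interval -1.54 to -0.63, SE 0.21, edgeR adjusted p = 0.00773), and the call was kept in each of the 7 fits without 1 library. With all hairpin libraries fitted as 1 group it was lost (adjusted p = 0.0794). With shDpep2.759 alone Gstt1 had a log2 fold change of -0.62 and did not pass (edgeR adjusted p = 0.189). Gstt2, of the same class, had 0.06 (-0.40 to 0.53). Gstp1 is the pi-class transferase. Gstp1 measured 46.8 and 43.1 CPM in the shDpep2.968 libraries, 55.6 and 39.4 CPM in the shDpep2.759 libraries and 54.1, 63.8 and 68.5 CPM in the shNT libraries. The groups overlapped through shDpep2.759 replicate 1 alone. The log2 fold change of -0.43 (95% interval -0.71 to -0.14) missed the threshold in edgeR (adjusted p = 0.0671) and passed it in DESeq2 (adjusted p = 0.0435). The copies Gstp2 and Gstp3 held 11 to 57 and 94 to 220 counts beside 672 to 1225 for Gstp1, so the value is uncertain to that extent. The mu-class Gstm1 (-0.18) and the omega-class Gsto1 (0.04) did not pass.

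Of 6 tested genes of quinone, thioredoxin and peroxide redox, Srxn1 rose. Srxn1 encodes sulfiredoxin, which repairs over-oxidised peroxiredoxins. Under shNT, Srxn1 had 62.3, 61.2 and 64.0 CPM, under shDpep2.968 78.5 and 76.9 CPM, and under shDpep2.759 94.8 and 88.5 CPM. The 3 groups did not overlap one another, and shDpep2.759 was the highest. The averaged change was 1.35-fold (log2 fold change 0.43, SE 0.09, 95% interval 0.23 to 0.63, edgeR adjusted p = 0.0138), a call lost without replicate 2 or 3 of shNT (adjusted p 0.0765 to 0.108). With the replicate number as a block the call was also lost (adjusted p = 0.146). With shDpep2.968 alone Srxn1 had a log2 fold change of 0.31 and did not pass (edgeR adjusted p = 0.115). Prdx1 encodes a peroxiredoxin that sulfiredoxin repairs. The control libraries held 854, 667 and 749 CPM of Prdx1, those of shDpep2.968 849.9 and 1086 CPM, and those of shDpep2.759 1067 and 1000.03 CPM. One Dpep2 hairpin library, shDpep2.968 replicate 1, was just below shNT replicate 1. The log2 fold change of 0.40 (95% interval 0.13 to 0.67) missed the threshold in edgeR (adjusted p = 0.0706) and passed it in DESeq2 (adjusted p = 0.0182). Txnrd1 is the selenoprotein that reduces thioredoxin. Txnrd1 measured 397 and 382 CPM in the shDpep2.968 libraries, 337 and 402 CPM in the shDpep2.759 libraries and 338, 319 and 332 CPM in the shNT libraries. The overlap came from shDpep2.759 replicate 1 alone, and the log2 fold change was 0.20 (-0.02 to 0.43). Thioredoxin, Txn1, had -0.12 (-0.36 to 0.12) and catalase, Cat, 0.01 (-0.21 to 0.23). Ephx1, the microsomal epoxide hydrolase, was low, at 3.53 to 4.16 CPM in the Dpep2 hairpin libraries and 4.53 to 5.75 CPM in the controls, and -0.45 (-0.84 to -0.06) did not pass (adjusted p = 0.162).

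**Figure D3:**
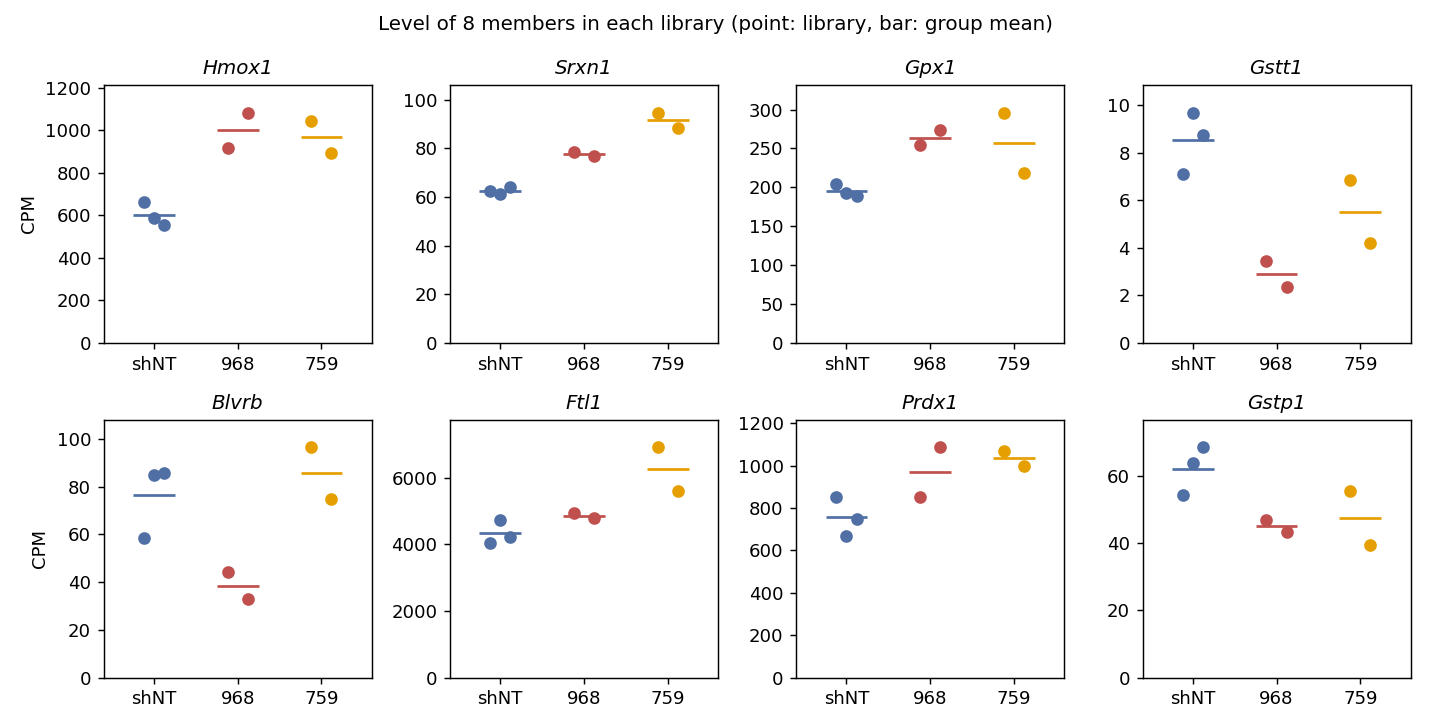
CPM of 8 members in each library, by hairpin. Points are libraries and bars group means. Hmox1, Srxn1 and Gpx1 lie above all shNT libraries with both Dpep2 hairpins, and Gstt1 lies below them.

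Hmox1, haem oxygenase, which opens the haem ring and releases iron, carbon monoxide and biliverdin, had the largest rise of the 36 members. Under shNT, Hmox1 had 661, 586 and 553 CPM, under shDpep2.968 919 and 1084 CPM, and under shDpep2.759 1044 and 895 CPM. The lowest Dpep2 hairpin library was well above the highest control. The means were 1002 ± 116 CPM (SD, n = 2) for shDpep2.968, 969.7 ± 105 CPM (SD, n = 2) for shDpep2.759 and 600.1 ± 55.3 CPM (SD, n = 3) for shNT. The averaged change was 1.64-fold (log2 fold change 0.72, SE 0.12, 95% interval 0.46 to 0.97, edgeR adjusted p = 0.00326), and the call was kept in each of the 7 fits without 1 library. The products of haem oxygenase pass to biliverdin reductases and, as iron, to ferritin. Blvrb is biliverdin reductase B, which also reduces flavins. The control libraries held 58.7, 85.0 and 85.8 CPM of Blvrb, those of shDpep2.968 44.2 and 32.9 CPM, and those of shDpep2.759 96.5 and 74.7 CPM. Both shDpep2.968 libraries were below every other library. Its averaged log2 fold change was -0.41 (adjusted p = 0.147).

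Ferritin stores the released iron in a shell of heavy and light chains. Fth1 measured 7133 and 8229 CPM in the shDpep2.968 libraries, 9166 and 7679 CPM in the shDpep2.759 libraries and 7364, 8255 and 8309 CPM in the shNT libraries. The groups of the heavy chain overlapped, at a log2 fold change of 0.01 (95% interval -0.24 to 0.26). Under shNT, Ftl1 had 4051, 4725 and 4213 CPM, under shDpep2.968 4927 and 4775 CPM, and under shDpep2.759 6905 and 5586 CPM. For the light chain each Dpep2 hairpin library was above each control, by a small margin for shDpep2.968. The averaged log2 fold change of Ftl1, 0.35 (0.10 to 0.60), missed the threshold in edgeR (adjusted p = 0.0898) and passed it in DESeq2 (adjusted p = 0.0229). The pseudogene Ftl1-ps1 held 31 to 386 counts beside 67047 to 123071 for Ftl1.

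The pentose phosphate members did not pass (0 of 4 in edgeR, 0 in DESeq2 and 0 at an unadjusted p under 0.05). G6pdx, the entry enzyme, had 0.08 (-0.14 to 0.30), Pgd 0.09 (-0.12 to 0.31), Taldo1 0.05 (-0.17 to 0.27) and Tkt -0.14 (-0.38 to 0.09) on the log2 scale. For Pgd the groups did not overlap, at 429.6 to 466 CPM against 411 to 425 CPM. Of the last 3 members 0 passed in edgeR and 0 in DESeq2 in the averaged comparison, and 2 had an unadjusted p under 0.05 there. Abcc1 exports glutathione conjugates and leukotriene C4. The control libraries held 390.4, 444 and 427 CPM of Abcc1, those of shDpep2.968 336 and 311 CPM, and those of shDpep2.759 326 and 387 CPM. All Dpep2 hairpin libraries were below the controls, at a log2 fold change of -0.31 (95% interval -0.54 to -0.08, adjusted p = 0.103). Osgin1, a growth inhibitor induced by oxidative stress, had 0.41 (0.03 to 0.78, adjusted p = 0.178). Sqstm1, the autophagy receptor p62 that also binds KEAP1, had 0.21 (-0.04 to 0.47), with the Dpep2 hairpin libraries at 967 to 1133 CPM and the controls at 757 to 964 CPM.

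Taken alone, shDpep2.968 gave 1 member higher and 2 lower, against 2.29% and 2.96% of all tested genes (5.25% in either direction). Hmox1 rose 1.67-fold (log2 fold change 0.74, SE 0.14, edgeR adjusted p = 0.01). Gstt1 fell by 1.55 (SE 0.27, adjusted p = 0.00719) and Blvrb by 0.99 (SE 0.20, adjusted p = 0.0171) on the log2 scale. Hmox1 lost its call without replicate 2 of shDpep2.968 or replicate 3 of shNT (adjusted p 0.0635 to 0.162). Gstt1 did so without replicate 2 of shDpep2.968 (0.143), and Blvrb without replicate 2 of shDpep2.968 or replicate 2 or 3 of shNT (0.0575 to 0.233).

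With shDpep2.759 alone, 3 members were higher, against 2.72% of all tested genes (4.73% in either direction), and 0 were lower in edgeR. In the lower direction 3 members had an unadjusted p under 0.05 and DESeq2 called 0. Hmox1 rose 1.62-fold (log2 fold change 0.69, SE 0.14, edgeR adjusted p = 0.0119), Srxn1 1.47-fold (0.55, SE 0.11, adjusted p = 0.0115) and Ftl1 1.44-fold (0.53, SE 0.14, adjusted p = 0.045). Hmox1 lost its call without replicate 1 of shDpep2.759 or replicate 2 or 3 of shNT (adjusted p 0.0518 to 0.0839). So did Srxn1, leaving out replicate 1 of shDpep2.759 or replicate 2 or 3 of shNT (0.0558 to 0.0762), and Ftl1, leaving out any 1 library except shDpep2.759 replicate 2 (0.0649 to 0.215). Ftl1 also missed the threshold without robust estimation (0.0506). Both single-hairpin comparisons share the 3 shNT libraries.

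Set directly against each other, the hairpins differed in 1 member, against 0.84% of all tested genes (0.585% higher and 0.255% lower with shDpep2.759). Blvrb was 2.22-fold higher with shDpep2.759 (log2 difference 1.15, SE 0.21, 95% interval 0.68 to 1.62, edgeR adjusted p = 0.0338). That call was lost without replicate 1 or 2 of shDpep2.968, replicate 1 of shDpep2.759 or replicate 3 of shNT (adjusted p 0.0605 to 0.354), and without robust estimation (0.0525). In the lower direction 0 members passed in edgeR and 0 in DESeq2, and 1 had an unadjusted p under 0.05. The log2 difference was -0.05 for Hmox1 (-0.38 to 0.28), -0.04 for Gpx1 (-0.36 to 0.29) and 0.24 for Srxn1 (-0.02 to 0.50). Gstt1 and Txn1 had 0.92 (0.29 to 1.56) and 0.46 (0.15 to 0.78), which did not pass (adjusted p = 0.171 and 0.172).

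**Figure D4:**
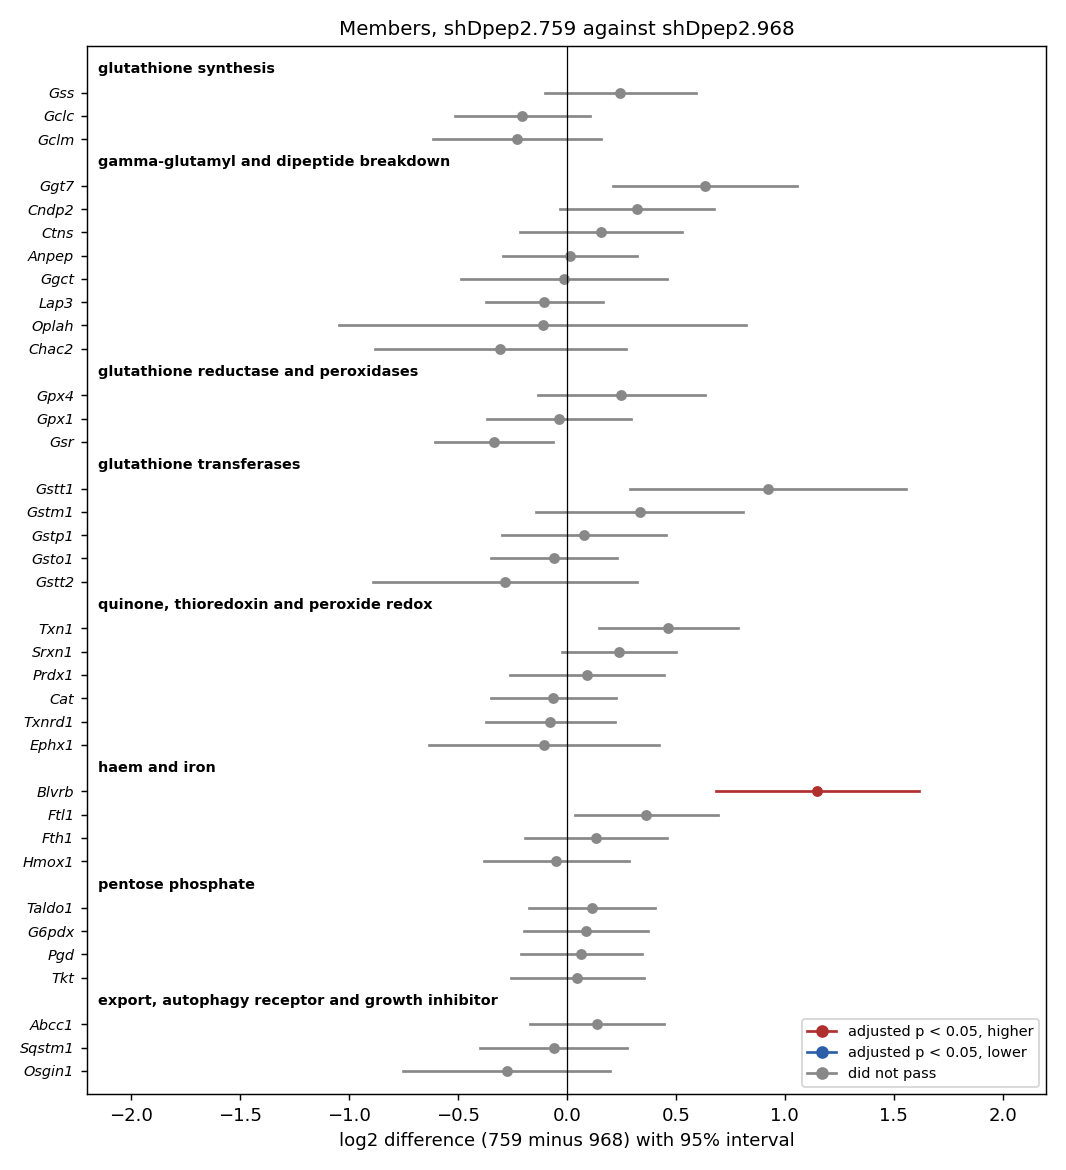
Log2 difference between the hairpins, shDpep2.759 minus shDpep2.968, for the 36 tested members by role. Points are estimates and lines 95% intervals. Blvrb at 1.15 is past the threshold, and Hmox1 at -0.05 lies near 0.

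Cysteine is the limiting part of glutathione. A list of 21 genes, all tested, covered cysteine, sulfur and one-carbon metabolism with transporters of several amino acids, and it also holds enzymes that spend cysteine or sulfide. In the averaged comparison 6 fell and 1 rose, so 28.6% of the list fell, against 4.15% of all tested genes, with a median log2 fold change of -0.25 against 0.00. The list was written with earlier results of these data known, so this excess is a description and not a test. Cth releases cysteine from cystathionine. Cth measured 8.90 and 8.29 CPM in the shDpep2.968 libraries, 25.02 and 15.5 CPM in the shDpep2.759 libraries and 31.8, 44.7 and 42.6 CPM in the shNT libraries. All Dpep2 hairpin libraries were below the controls, those of shDpep2.968 furthest. Cth fell by 1.59 (SE 0.17, edgeR adjusted p = 0.00025) on the log2 scale, and was higher with shDpep2.759 than with shDpep2.968 (log2 difference 1.24, adjusted p = 0.0338), a difference lost in 4 of the 7 fits without 1 library (0.064 to 0.378). The amino acid transporter Slc1a4 fell by 1.16, the glycine transporter Slc6a9 by 0.95 and Sqor, which oxidises hydrogen sulfide, by 0.81. Of these, Slc6a9 and Sqor do not deliver cysteine. These 4 kept their calls in each of the 7 fits without 1 library, but with all hairpin libraries as 1 group Cth (adjusted p = 0.085) and Sqor (0.155) lost theirs. Slc7a11 and Slc3a2, the subunits of the cystine importer, had 0.24 and -0.05 and did not pass. The other 2 that fell, Cbs and Slc7a5, had -1.55 and -0.41 (adjusted p = 0.0183 and 0.0475) and lost their calls in 4 and 5 of the 7 fits. Slc7a11, Slc3a2, Cbs, Slc7a5 and Mat2a were chosen after their values were seen. Mat2a, which makes S-adenosylmethionine, was the 1 that rose. Mat2a had 0.58 (adjusted p = 0.0258), lost without replicate 1 or 2 of shDpep2.968 or replicate 2 or 3 of shNT (0.0666 to 0.176).

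Of all tested genes, 4.15% were called lower and 3.44% higher in the averaged comparison, with a median log2 fold change of 0.00. Against that, other gamma-glutamyl and dipeptide enzymes had 2 lower and 0 higher of 7 tested (median -0.12), Dpep2 itself being 1 of the 2. In the higher direction 1 had an unadjusted p under 0.05 and DESeq2 called 0. The other lower gene was Chac1, which cleaves glutathione in the cytosol. Chac1 fell by 1.04 on the log2 scale (edgeR adjusted p = 0.0244), a call lost without replicate 2 of shDpep2.968, replicate 2 of shDpep2.759 or replicate 2 or 3 of shNT (0.059 to 0.0915). With shDpep2.759 alone 1 was higher and Dpep2 was the 1 lower, against 2.72% and 2% of all tested genes. The higher gene was Ggh, a gamma-glutamyl hydrolase of folates, chosen after its values were seen. Under shNT, Ggh had 27.6, 22.7 and 27.3 CPM, under shDpep2.968 21.4 and 30.7 CPM, and under shDpep2.759 41.6 and 37.8 CPM. The log2 fold change of Ggh with shDpep2.759 was 0.62 (SE 0.16, adjusted p = 0.0496), and the call was lost in 4 of the 7 fits without 1 library (0.0665 to 0.201). In the averaged comparison, other glutathione transferases had 1 higher and 1 lower of 11 tested, at a median log2 fold change of -0.32. Gstt3, of the same theta class as Gstt1, went from 13.4 to 15.0 CPM in the controls to 7.26 to 8.27 CPM, a log2 fold change of -0.85 (adjusted p = 0.00206). Hpgds, which makes prostaglandin D2, rose 1.72-fold (adjusted p = 0.00308).

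NRF2 itself is encoded by Nfe2l2. Its controls stood at 115, 103 and 101 CPM, the shDpep2.968 libraries at 82.3 and 97.7 CPM, and those of shDpep2.759 at 105 and 109.7 CPM. The groups overlapped, and the log2 fold change of -0.11 did not pass (adjusted p = 0.547). Of all tested genes, 3.44% were called higher and 4.15% lower in the averaged comparison. There, of 13 genes for NRF2 and its regulators 1 rose and 0 fell, at a median log2 fold change of -0.02. Of the 13, 1 was lower at an unadjusted p under 0.05 and 0 were lower by DESeq2. The 1 that rose was Keap1, at 1.30-fold (log2 fold change 0.37, edgeR adjusted p = 0.0486), lost without any 1 library except shDpep2.759 replicate 2 (0.0673 to 0.178). With shDpep2.968 alone 0 of the 13 were higher in edgeR (1 at an unadjusted p under 0.05, 0 by DESeq2). In the lower direction 1 was called, against 2.96% of all tested genes. That gene was Nfe2l1, a relative of NRF2 chosen after its values were seen. Nfe2l1 measured 224 and 222 CPM in the shDpep2.968 libraries, 325 and 285 CPM in the shDpep2.759 libraries and 293, 353 and 319.8 CPM in the shNT libraries. Both shDpep2.968 libraries were below every other library, at a log2 fold change of -0.53 (SE 0.13, adjusted p = 0.0344). The call was lost in 4 of the 7 fits without 1 library (0.116 to 0.264). With shDpep2.759 alone edgeR called 0 of the 13 in either direction, while 1 was higher at an unadjusted p under 0.05 and 1 by DESeq2. In the averaged comparison, of 13 other NRF2 targets tested 1 fell and 0 rose, at a median log2 fold change of -0.06. Of these targets 0 were higher at an unadjusted p under 0.05 and 0 by DESeq2. The carbonyl reductase Cbr3 had -0.56 (adjusted p = 0.0424), lost without replicate 1 or 2 of shDpep2.968, replicate 2 of shDpep2.759 or replicate 2 or 3 of shNT (0.0933 to 0.183).

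Other peroxidases, thioredoxins and superoxide dismutases had 3 higher and 1 lower of 17 tested in the averaged comparison. Their median log2 fold change was 0.01, and 3.44% of all tested genes were called higher and 4.15% lower. The mitochondrial superoxide dismutase Sod2 went from 166 to 181 CPM in the controls to 206 to 349 CPM in the Dpep2 hairpin libraries, a 1.56-fold rise (adjusted p = 0.0028; 0.0505 with all hairpin libraries as 1 group). Glrx encodes glutaredoxin, which removes glutathione from proteins. Under shNT, Glrx had 457, 383 and 333 CPM, under shDpep2.968 400.2 and 478 CPM, and under shDpep2.759 793 and 648 CPM. The shDpep2.968 libraries overlapped the controls, and the shDpep2.759 libraries were above all others. Glrx had an averaged log2 fold change of 0.52 (adjusted p = 0.0332), lost without replicate 2 of shDpep2.968 or replicate 2 or 3 of shNT (0.121 to 0.201). With shDpep2.968 alone it was 0.17 (adjusted p = 0.562) and with shDpep2.759 alone 0.88 (adjusted p = 0.00631), the latter kept in each of the 7 fits without 1 library. The direct difference between the hairpins, 0.72, did not pass (adjusted p = 0.0796). Msrb1, a methionine sulfoxide reductase, had 0.52 (adjusted p = 0.0178), lost without replicate 1, 2 or 3 of shNT (0.056 to 0.0945). Txnip, the thioredoxin-interacting protein, fell by 0.71 (adjusted p = 0.00335).

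Other genes of NADPH supply had 2 lower and 0 higher of 12 in the averaged comparison, with 0 higher at an unadjusted p under 0.05 and 0 by DESeq2. Their median log2 fold change was -0.19, and 4.15% of all tested genes were called lower and 3.44% higher. The mitochondrial isocitrate dehydrogenase Idh2 fell by 0.72 (adjusted p = 0.00408). Mthfd2, a mitochondrial folate enzyme, had -0.40 (adjusted p = 0.0311), lost without replicate 1 or 2 of shDpep2.968, replicate 2 of shDpep2.759 or replicate 2 or 3 of shNT (0.0586 to 0.161). Other iron and haem genes had 3 higher and 1 lower of 13 in the averaged comparison, at a median log2 fold change of 0.10. The phagosomal metal transporter Slc11a1 rose 1.45-fold (adjusted p = 0.00669), lost without replicate 3 of shNT (0.0616) and with the replicate number as a block (0.114). Blvra, biliverdin reductase A, rose 1.31-fold (adjusted p = 0.0359), lost without replicate 2 of shDpep2.968 or replicate 1, 2 or 3 of shNT (0.0835 to 0.196). Slc11a2, an iron importer, rose 1.27-fold (adjusted p = 0.0441), lost without any 1 library except shDpep2.759 replicate 1 (0.0796 to 0.205). The ferroxidase Cp fell by 0.73 (adjusted p = 0.00167; 0.0734 with all hairpin libraries as 1 group), and it was higher with shDpep2.759 than with shDpep2.968 (log2 difference 0.71, adjusted p = 0.0366), lost in 6 of the 7 fits without 1 library (0.0618 to 0.166).

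Several averaged calls in the related lists passed with 1 hairpin alone and not with the other. Sqor, Chac1, Hpgds, Blvra and Cp passed with shDpep2.968, and Glrx, Sod2, Msrb1, Idh2 and Slc11a1 with shDpep2.759. Of these 10, Cp passed the direct test between the hairpins, so for the other 9 a difference between the hairpins was not shown. Cth, Slc1a4, Slc6a9, Gstt3 and Txnip passed with each hairpin alone, and Slc7a5, Keap1, Cbr3, Mthfd2 and Slc11a2 with neither. Cbs and Mat2a passed with shDpep2.968 alone (edgeR adjusted p = 0.0489 and 0.0414) and not with shDpep2.759, and did not pass the direct test.

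**Figure D5:**
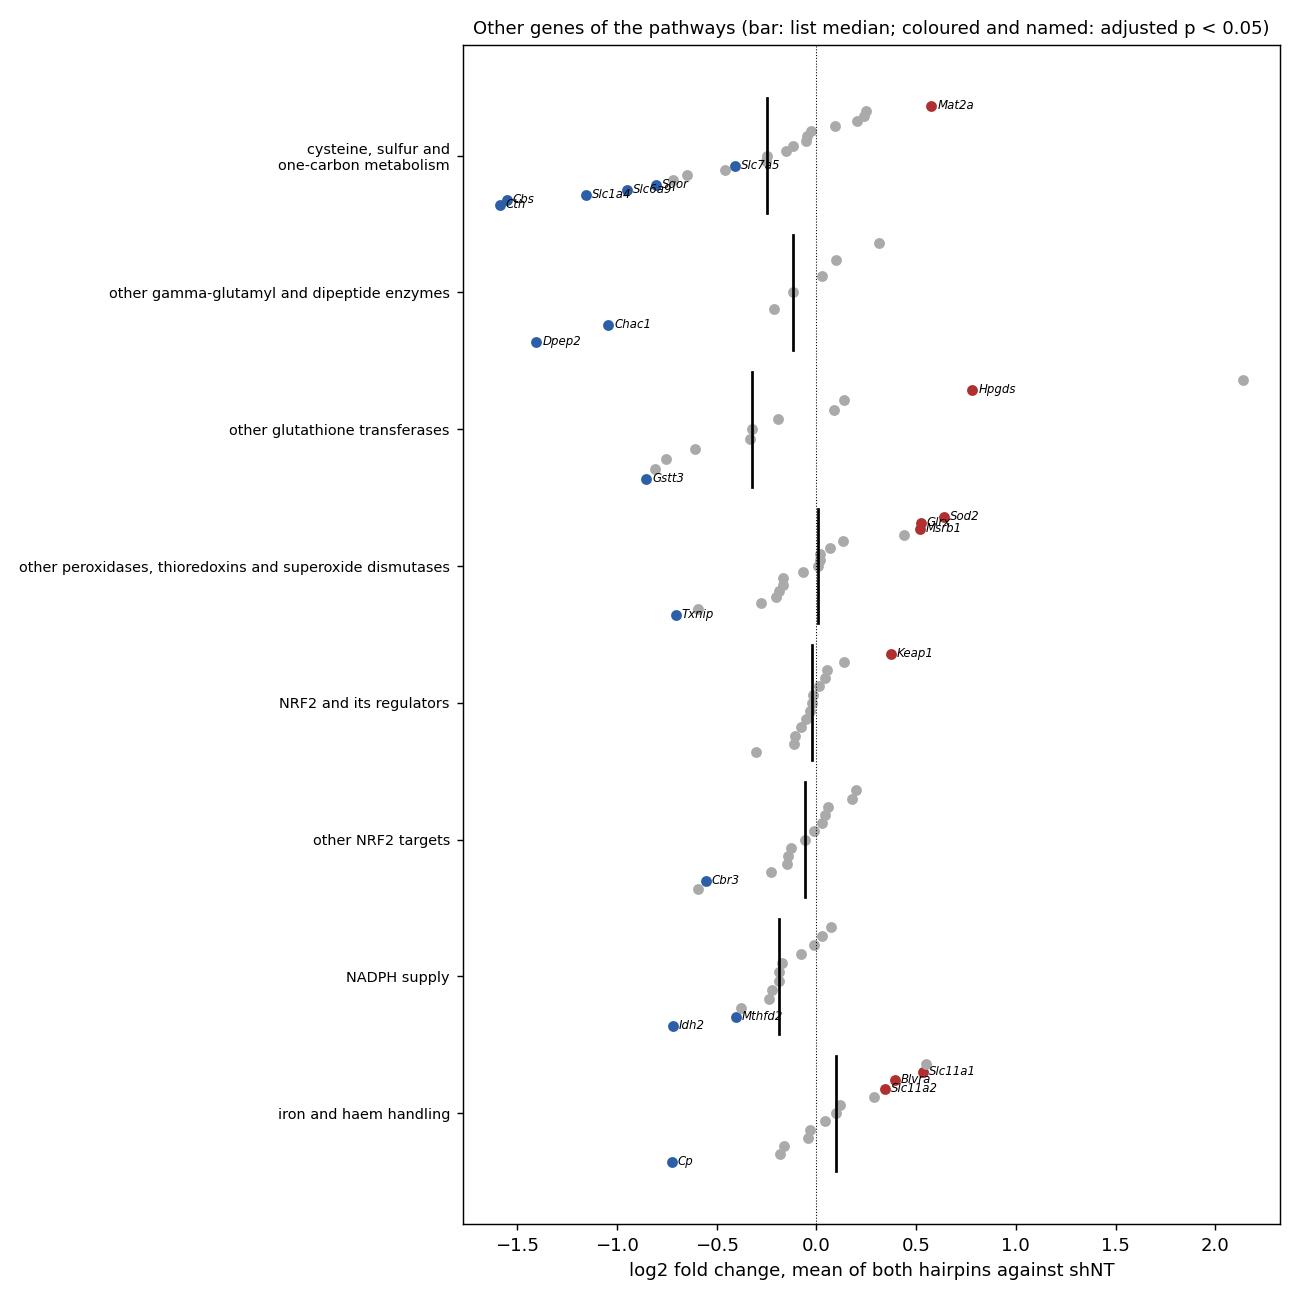
Averaged log2 fold change of tested genes in 8 related lists, 1 point per gene, with the list median as a bar. Coloured, named genes have adjusted p under 0.05. The list of cysteine, sulfur and one-carbon metabolism, which includes amino acid transporters, holds 6 lower genes, of which Cth at -1.59 is the lowest.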

How the data were processed

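The deposited table holds whole-number counts per gene symbol in 7 libraries of RAW264.7 cells. Per the labels' protocols, the authors made libraries with a TruSeq stranded kit for total RNA and sequenced 150 bp from both ends. Trim Galore and Salmon, and build hg38, are named per the submitters' processing notes, although the symbols are mouse. Which mouse annotation and strand setting were used, and whether estimates were rounded, is not given in the sources used here.

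Samples were grouped by hairpin. All genes were fitted with edgeR 4.0.16 (R 4.3.3): filterByExpr, TMM, 1 mean per group in 7 libraries (4 residual degrees of freedom), robust quasi-likelihood tests and Benjamini-Hochberg adjustment, threshold 0.05. Intervals are 95%, from the standard error and the total degrees of freedom of the fit, which edgeR raises by sharing information across genes. Replicates differed beyond sampling noise (chi-square over its degrees of freedom, 14.2 to 41.0). The common coefficient of variation that edgeR terms biological was 13.8%, and it may be technical here. Lengths and GC content came from each symbol's longest GENCODE M21 transcript. The fits were also run on counts simulated from their own means and dispersions. That simulation has no deviations shared across the genes of a library, so it cannot show that the calls hold in these data. Members, lists and tests were chosen with earlier results of these data known. Every member is accounted for, and in related lists up to 4 genes past the threshold, those with the smallest p, were named. Any other gene of those lists was chosen after its values were seen and is marked so where it is described. Alternatives were DESeq2 1.42.0, median-ratio size factors, other count filters, no robust estimation, a replicate block, a GC and length correction, each library left out, and all hairpin libraries as 1 group.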

Additional observations from a re-analysis of the deposited data

Results flagged for a closer look

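Blvrb differed between the hairpins by 1.15 on the log2 scale (shDpep2.759 minus shDpep2.968; edgeR quasi-likelihood adjusted p = 0.0338), the only one of 36 tested members with a tested difference past the threshold. Gsr lay above all shNT libraries in both shDpep2.968 libraries and below all of them in both shDpep2.759 libraries. Its log2 difference of -0.334 did not pass over all genes (adjusted p = 0.24). The share of all tested genes with this pattern of libraries was not counted, so the pattern of Gsr cannot be set against a background.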

How the results depend on the processing

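Of the 8 counts of members (3 higher and 1 lower with both hairpins, 1 and 2 for shDpep2.968 alone, 3 and 0 for shDpep2.759 alone, 1 and 0 between the hairpins), all were the same with median-ratio size factors and with a filter of at least 1 CPM in 2 libraries. The GC and length correction gave 6 higher and 4 lower for both hairpins, 5 and 4 for shDpep2.968, and 4 and 2 for shDpep2.759. For both hairpins it added Ftl1, Prdx1, Osgin1, Gstp1, Abcc1 and Blvrb. Across tested genes (not independent replicates), Spearman's coefficient of the averaged fold change with GC content was -0.25, and median GC content was 52.9% for tested members and 49.3% for all tested genes. DESeq2 gave 5 higher and 2 lower for both hairpins, adding Ftl1, Prdx1 and Gstp1. It gave 2 higher for shDpep2.968 and 4 higher for shDpep2.759. No low-count filter gave 4 higher and 3 lower for both, 2 higher and 3 lower for shDpep2.968, and 2 higher between the hairpins. Without robust estimation 0 members differed between the hairpins (Blvrb lost), both hairpins gave 2 higher (Gpx1 lost) and shDpep2.759 gave 2 higher (Ftl1 lost), while Slc7a5, Keap1 and Cbr3 lost their averaged calls. With 1 hairpin group 2 were higher (Gpx1 lost) and 0 were lower (Gstt1 lost). In related lists, Slc7a5, Chac1, Glrx, Msrb1, Keap1, Cbr3, Mthfd2, Blvra and Slc11a2 also lost their calls with 1 hairpin group. The cause was not tested.

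Leaving out 1 library each time gave 1 to 4 higher and 1 to 3 lower for both hairpins, 0 to 2 and 0 to 3 for shDpep2.968, 0 to 4 and 0 to 1 for shDpep2.759, and 0 to 3 higher and 0 lower between the hairpins. Over all tested genes the averaged comparison called 1012, against 321 (without shNT replicate 3) to 1468 (without shDpep2.759 replicate 1), 1590 with no filter, 540 with 1 hairpin group and 2141 with the correction.

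Same-numbered libraries did not deviate together (correlations -0.23 to 0.07). With n = 2 in each Dpep2 hairpin group these correlations mirror one another, so they cannot decide whether the numbers mark a pairing. With the number as a replicate block 404 genes were called, and 1 member was higher for both hairpins, 0 for shDpep2.968 and 0 for shDpep2.759. Gpx1 and Srxn1 lost their calls for both hairpins, Hmox1 for shDpep2.968, and Hmox1, Srxn1 and Ftl1 for shDpep2.759. In related lists, Cbs, Slc7a5, Mat2a, Chac1, Glrx, Msrb1, Keap1, Cbr3, Mthfd2, Blvra, Slc11a1 and Slc11a2 lost their averaged calls with the block. Members without a call changed sign in some fits. With the replicate block Chac2 was at 0.016 and Cat at -0.064 on the log2 scale, and with the correction Ggt7 was at 0.13 and Gpx4 at 0.056. Without 1 library, Ggt7 ran from -0.14 to 0.033, Chac2 from -0.21 to 0.064, Oplah from -0.10 to 0.45, Cndp2 from -0.051 to 0.16, Gpx4 from -0.24 to 0.031, Gstt2 from -0.15 to 0.23, Cat from -0.066 to 0.061, Fth1 from -0.055 to 0.071 and Taldo1 from -0.0095 to 0.097. Depth left 6 members with too few counts to test.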
